A study of Mus musculus with 19 samples.

Results

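The cytosolic ribosomal protein genes were taken as the protein-coding rows whose symbol had the form of Rpl, Rps or Rplp followed by a number, with Rpsa added. The rule gave 83 genes of the 46078 in the table, 51 for the large (60S) and 32 for the small (40S) ribosomal subunit, spread over 19 chromosomes. Genes that encode ribosomal proteins under other names, such as Fau and Rack1, fall outside the rule, as does Rpl36al. RNA-seq had been done on 19 mouse libraries in 5 groups. MG-WT were mammary glands of wild type mice, age-matched (n = 3). MG-N and MG-NP were glands without malignant lesions from tumor-bearing mice (n = 4 each), and T-N and T-NP were mammary tumors (n = 4 each). All 4 T-N tumors and MG-N replicate 1 were MMTV-neu;Fsp-Cre, whereas MG-N replicates 2 to 4 were MMTV-neu;p53wm-R172H/+ without Cre. Every MG-NP and T-NP sample was MMTV-neu;p53wm-R172H/+;Fsp-Cre. The MMTV promoter drives wild-type neu (ERBB2) in mammary epithelium, and Fsp-Cre acts in fibroblasts, where it turns the conditional Trp53 allele into the R172H mutant. So every group except MG-WT carries the neu transgene, the mutant is expected in the fibroblasts of MG-NP and T-NP alone, and RNA of whole tissue holds many other cells. T-NP replicates 1 and 2 carry the same number in their library names, and the labels do not say what it stands for.

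The cytosolic ribosome translates nearly all cellular mRNA, and its proteins are made in roughly equal amounts and built into subunits together with ribosomal RNA in the nucleolus. Ribosomal protein mRNAs usually begin with a C followed by a run of pyrimidines, the 5′ terminal oligopyrimidine (TOP) tract, through which growth signals such as mTORC1 control their translation. A few members are paralogs with restricted or regulated expression: Rpl3l is a form of Rpl3 in skeletal muscle and heart, Rpl39l and Rpl10l are known from testis, and Rps27l is known as a p53-inducible relative of Rps27. Rpl5 and Rpl11 form the 5S ribonucleoprotein with 5S rRNA, which can bind MDM2, and Rplp0, Rplp1 and Rplp2 make up the P stalk that recruits the translation GTPases.

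The start regions of 5 members show the TOP-like start and a paralog without it. Each run gives the 60 bases before and the 25 bases from the transcription start that RefSeq annotates on GRCm38.p6, with capitals marking a C followed by at least 4 pyrimidines (C or T) whose first base lies within 5 bases of that start.
Rps27 (chr3:90213624-90213708, - strand): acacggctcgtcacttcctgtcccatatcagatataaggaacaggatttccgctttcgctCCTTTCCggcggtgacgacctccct
Rps27l (chr9:66946026-66946110, + strand): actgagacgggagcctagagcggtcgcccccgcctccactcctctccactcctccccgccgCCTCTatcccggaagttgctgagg
Rps26 (chr10:128626482-128626566, - strand): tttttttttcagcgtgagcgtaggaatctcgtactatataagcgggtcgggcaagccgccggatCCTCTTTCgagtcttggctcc
Rps6 (chr4:86857343-86857427, - strand): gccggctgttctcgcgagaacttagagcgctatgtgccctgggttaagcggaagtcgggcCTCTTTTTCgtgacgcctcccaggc
Rpl3l (chr17:24727766-24727850, + strand): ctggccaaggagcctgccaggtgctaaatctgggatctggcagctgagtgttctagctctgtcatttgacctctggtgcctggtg
Among the 63 members with a RefSeq start region, 29 (46.0%) had such a TOP-like start, against 21.2% of all 27025 genes and 24.6% of 4493 other genes with a mean of 1000 or more normalized counts. Within the 300-base regions, on either strand, CCGGAA was present in 55.6% of members, 16.7% of all genes and 30.9% of those other abundant genes. In the same order, CTTTCC was present in 52.4, 29.3 and 31.1%, ATGGCG in 33.3, 10.2 and 18.6%, and TATAAA in 11.1, 15.7 and 8.95%; a tract may overlap CTTTCC. These are matches of letters only. The 29 members with a TOP-like start and the 32 tested members without one had median log2 fold changes of 1.02 and 0.90 in T-N against MG-N, and of 0.84 in both sets in T-NP against MG-NP.

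Library composition moved with the groups. The 3 MG-WT libraries held 54677315 to 62645459 gene reads, against 20899152 to 27262440 in the other 16, and mitochondrial genes took 0.364 to 0.405% of their reads against 3.33 to 5.68% in MG-N. All 9 white adipocyte markers were above 10 normalized counts in every MG-N and MG-NP gland, where they took 0.580 to 1.97% of reads. They took 0.00799 to 0.0127% in MG-WT, where 4 of 9 were above 10 in all libraries, and 0.00238 to 0.0287% in the tumors. The 9 luminal epithelial markers took 0.278 to 0.320% of reads in MG-WT, 0.0473 to 0.0999% in MG-N, 0.0233 to 0.0996% in MG-NP and 0.331 to 0.643% in the tumors, and the 10 cell division genes 0.0133 to 0.0334% in MG-N against 0.0629 to 0.236% in the tumors. The 24 skeletal muscle genes took 3.76, 20.1, 0.136 and 11.6% of reads in MG-NP replicates 1 to 4 and at most 0.209% in any other library. The 6 basal epithelial markers took 0.177 to 0.208% in MG-WT, 0.0165 to 0.0618% in MG-N and MG-NP and 0.00438 to 0.0166% in the tumors. The 7 T cell markers took 0.00337 to 0.0171% in MG-N, 0.0201, 0.000995, 0.0264 and 0.00153% in MG-NP replicates 1 to 4 and 0.000194 to 0.00103% in the tumors. The 7 B cell markers took 0.0407, 0.00092, 0.0712 and 0.00893% in MG-NP replicates 1 to 4, 0.000509 to 0.0394% in MG-N and 0.000144 to 0.00242% in the tumors. In bulk tissue, fewer cells of a type and less RNA per cell cannot be told apart.

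The share of gene reads on the 83 members was larger in every tumor than in every gland. It was 2.04, 1.77 and 1.99% in the MG-WT libraries, 1.81, 1.70, 2.82 and 2.47% in MG-N, 2.87, 1.54, 3.29 and 1.59% in MG-NP, 4.60, 3.99, 3.63 and 3.35% in T-N, and 4.09, 4.80, 3.90 and 4.03% in T-NP. The MG-NP replicates of larger share, 1 and 3, were those with less muscle and more T and B cell marker reads. The means were 1.93 ± 0.14% (SD, n = 3) in MG-WT, 2.20 ± 0.54% in MG-N, 2.32 ± 0.89% in MG-NP, 3.89 ± 0.54% in T-N and 4.21 ± 0.40% in T-NP (n = 4 each). With skeletal muscle and mitochondrial reads left out of the total, MG-NP rose to 2.69 ± 0.67% and T-NP was 4.26 ± 0.42%, and the groups still did not overlap. The 253 named ribosomal protein pseudogene rows took at most 0.036% of reads in any library. Large subunit genes had 1.31 to 1.45 times the reads of small subunit genes in the 5 group means.

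**Figure D1:**
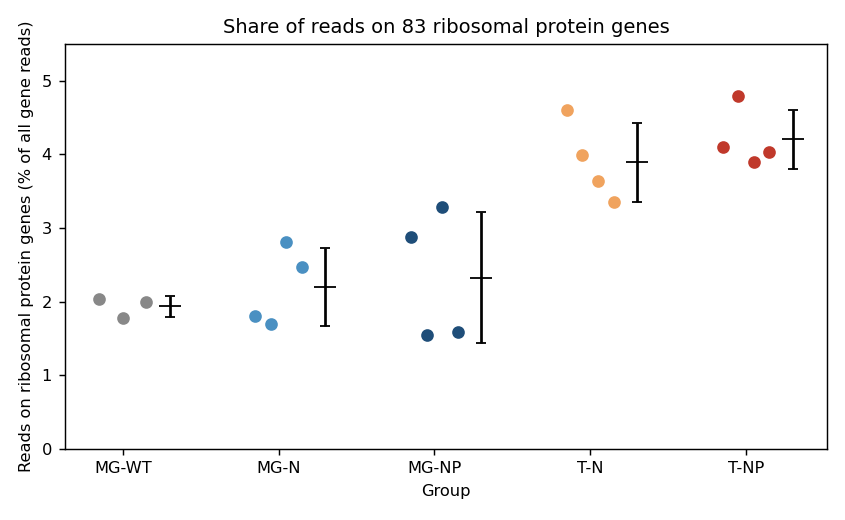
Percent of all gene reads that fell on the 83 ribosomal protein genes, 1 point per library in 5 groups, with the group mean and SD beside the points. The 8 tumors lie between 3.35 and 4.80%, above the highest gland at 3.29%.

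Of the 83 members, 79 had a mean of 1000 or more normalized counts over the 19 libraries and 76 stayed above that in each library. Per kilobase of transcript, the most abundant rows were Rplp1 (a P stalk protein) at 26343 normalized counts per kb, Rps27 (a small subunit zinc finger protein) at 25784 and Rps4x (the X-linked form of a small subunit protein) at 24839. The 3 lowest were Rpl10l, with 0 reads in all libraries, Rpl39l at 28.0 and the row of Rpl24 at 132 normalized counts per kb. Rpl24 is a core protein of the large subunit, and its transcript shared 80.9% of its 75-base windows with transcripts of 4 other genes, so how reads were divided among these rows is uncertain. Any such window was shared by 79 of the 83 members, with a median of 46.8% of windows, and 33 members shared 50% or more. Across genes, the shared percentage had a Spearman correlation of 0.08 (n = 81) with the change in T-N and 0.12 (n = 81) with that in T-NP; genes are not independent replicates.

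Tumors were compared with the glands of the matching designation to ask what distinguished the tumor tissue. In T-N against MG-N, 73 of 81 tested members rose and 1 fell, where 23.5% and 27.8% of all tested genes rose and fell. The median log2 fold change of the members was 0.95 (1.93-fold), against -0.05 for all genes. The groups did not overlap for 59 members higher in T-N (22.7% of all genes) and 1 lower (26.4%). In T-NP against MG-NP, 74 of 81 rose and 1 fell, against 26.2% and 29.3% of all genes, with a median of 0.85 (1.81-fold) against -0.07. There 71 members were higher without overlap (25.2% of all genes) and 1 was lower (27.4%). The rise passed the test in 28 of 32 small and 45 of 49 tested large subunit genes in T-N, and in 31 of 32 and 43 of 49 in T-NP. The 70 members that rose in both made up 95.9% of those that rose in T-N and 94.6% of those that rose in T-NP. At least a 2-fold rise was reached by 35 members in T-N (12.8% of all genes) and 20 in T-NP (14.7%). With T-NP replicates 1 and 2 averaged, 71 rose and 1 fell. With the skeletal muscle score as a covariate, 6 members (Rps25, Rpl28, Rps27l, Rpl32, Rpl7a and Rpl7l1) passed in T-NP. That was 7.41% of those tested against 11.6% of all genes, and the median was 0.50 against -0.004. The score, a mean of log2 values, was 8.76 to 16.68 in MG-NP and 3.46 to 8.11 in T-NP. These ranges do not overlap, so muscle and group cannot be told apart in this fit. The fat, luminal, basal, T cell, B cell and cell division markers above moved with the same contrasts, and their part in the rise was not tested.

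**Figure D2:**
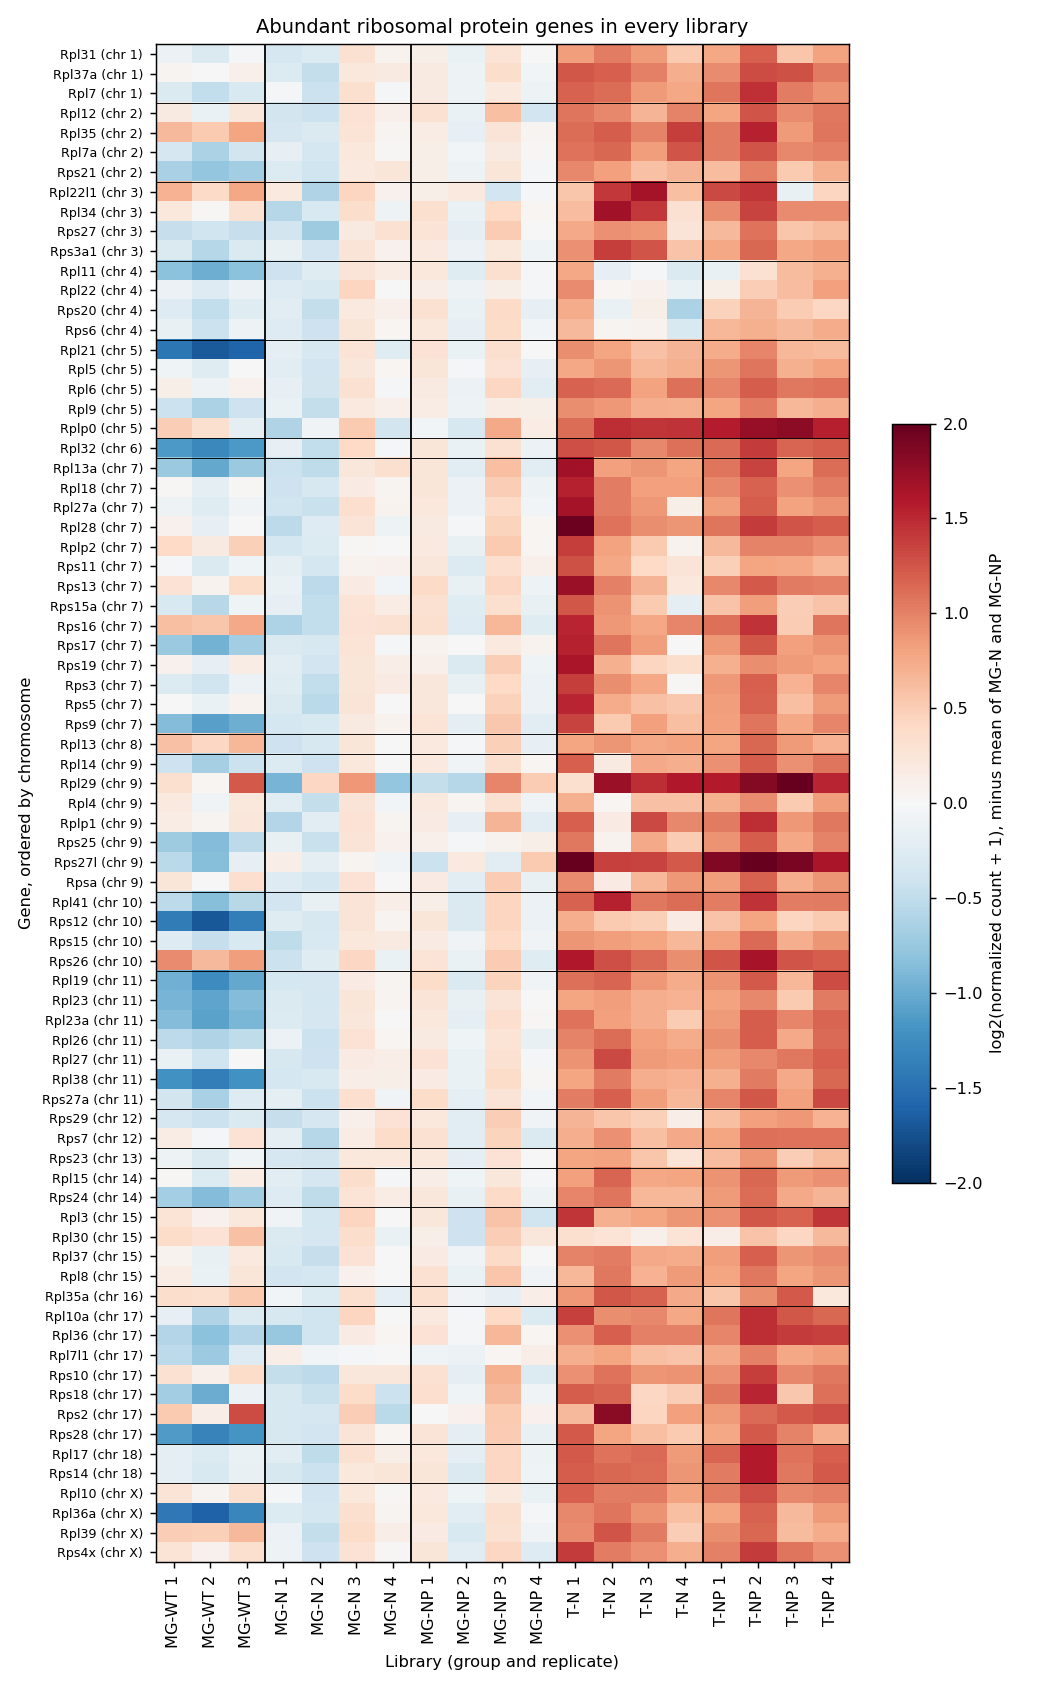
Colour gives log2(normalized count + 1) minus the mean of the 8 MG-N and MG-NP glands for 77 abundant members (rows, by chromosome) in 19 libraries (columns), capped at -2 and 2. The tumor columns are red in most rows, and the chromosome 4 rows are pale in T-N 2, 3 and 4.

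Rps27l showed the largest rise in both. Its normalized counts were 1062, 839, 1006 and 920 in MG-N and 4104, 2475, 2468 and 2259 in T-N, 717, 1101, 828 and 1384 in MG-NP and 3479, 4254, 3602 and 2984 in T-NP, and 664, 533 and 859 in MG-WT. All tumors lay above all glands. The log2 fold change was 1.52 ± 0.20 (SE, adjusted p = 0.000475) in T-N and 1.86 ± 0.22 (SE, adjusted p = 0.000186) in T-NP. Relative to the family median of each library, a scaling chosen after seeing the data, it was the single member to depart upward in T-N (by 0.68). In T-NP it departed by 1.11 and was 1 of 8 members that departed upward. Under this scaling 991 of 17950 tested genes were higher in T-N and 1603 of 17880 in T-NP.

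Rplp0, the base of the P stalk, came next in T-N. It had 8478, 12343, 18607 and 10031 normalized counts in MG-N and 28003, 35837, 34976 and 35006 in T-N. It had 12413, 10307, 21742 and 14274 in MG-NP and 38339, 43230, 44835 and 37884 in T-NP. No tumor overlapped its glands, and the log2 fold changes were 1.49 ± 0.25 (SE, adjusted p = 0.00142) and 1.54 ± 0.23 (SE, adjusted p = 0.000771). The acidic stalk proteins rose less: Rplp1 by 1.02 ± 0.29 (SE, adjusted p = 0.0172) and 1.0 ± 0.23 (SE, adjusted p = 0.00614), and Rplp2 by 0.85 ± 0.26 (SE, adjusted p = 0.0243) and 0.73 ± 0.17 (SE, adjusted p = 0.00605). For Rplp1, T-N replicate 2 (9891) lay within the MG-N range, whose highest library had 10823.

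Rps26, a small subunit protein near the mRNA exit channel, had 2638, 2995, 4727 and 3261 in MG-N and 10834, 8677, 7800 and 6763 in T-N. Its levels were 4322, 3233, 5034 and 2992 in MG-NP and 8482, 11174, 8476 and 8249 in T-NP, again without overlap. It rose by 1.34 ± 0.21 (SE, adjusted p = 0.00122) and 1.24 ± 0.19 (SE, adjusted p = 0.000874) on the log2 scale. Rpl29, a large subunit protein, had 867, 812, 2395 and 1725 in MG-NP and 3662, 4327, 5910 and 3477 in T-NP, and rose by 1.70 ± 0.36 (SE, adjusted p = 0.00402). Its gland libraries spread more widely than those of most members, and 43 other genes shared windows with its transcript. Rpl3, which helps form the peptidyl transferase centre, had 15111, 9701, 19090 and 9722 in MG-NP and 24254, 30423, 29031 and 34639 in T-NP and rose by 1.19 ± 0.25 (SE, adjusted p = 0.00399). In T-N, Rpl28 rose by 1.37 ± 0.27 (SE, adjusted p = 0.00316) and Rpl36 by 1.27 ± 0.21 (SE, adjusted p = 0.00125), both large subunit proteins. Rpl28 had 3233, 3870, 5561 and 4333 in MG-N and 18061, 9849, 8889 and 8535 in T-N, with T-N replicate 1 the highest tumor by far.

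**Figure D3:**
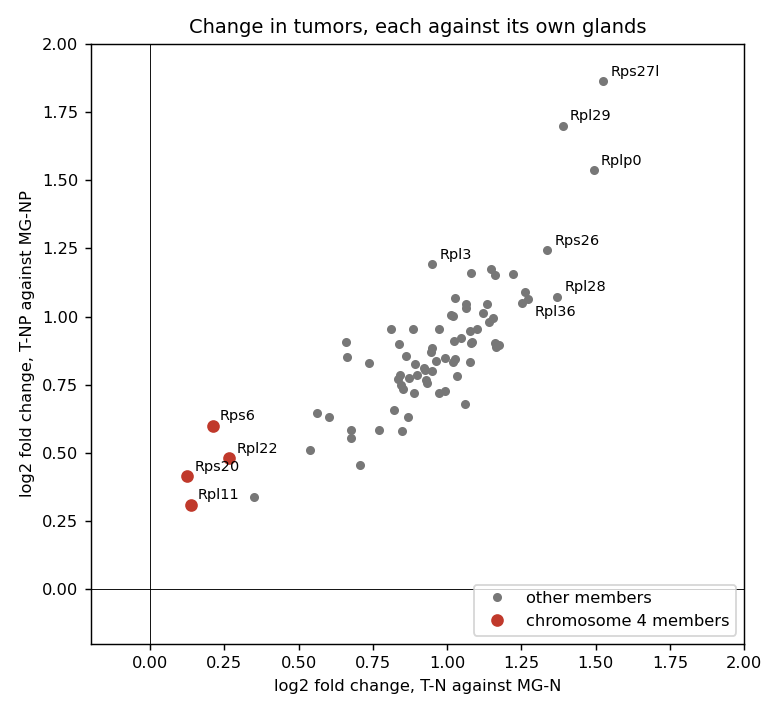
Log2 fold change of 78 members tested in both comparisons, T-N against MG-N (horizontal) and T-NP against MG-NP (vertical), with 4 chromosome 4 members in red. All points lie above 0 on both axes, Rps27l is at the upper right, and Rps20, Rpl11, Rps6 and Rpl22 have the 4 smallest values on the horizontal axis.

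Among the members that did not pass in T-N were Rpl11, Rpl22, Rpl30, Rps15a, Rps20 and Rps6, and Rpl39l fell. Rpl11, Rpl22, Rps20 and Rps6 lie on chromosome 4, which holds 5 members in all. Rpl11, of the 5S ribonucleoprotein, had 4645, 5197, 7377 and 6829 normalized counts in MG-N and 10590, 5494, 6044 and 5048 in T-N. T-N replicate 1 was high and the other 3 tumors were within the gland range. Its log2 fold change was 0.14 ± 0.26 (SE, adjusted p = 0.68) in T-N and 0.31 ± 0.22 (SE, adjusted p = 0.247) in T-NP, where it had 7107, 5227, 7670 and 6006 in glands and 5552, 7611, 9539 and 10038 in tumors. Its partner Rpl5, on chromosome 5, rose by 0.84 ± 0.17 (SE, adjusted p = 0.00332) and 0.78 ± 0.16 (SE, adjusted p = 0.00343).

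Rps6, the small subunit protein that S6 kinases phosphorylate, had 7097, 6363, 10030 and 8728 in MG-N, 13208, 8794, 8874 and 6887 in T-N, 9844, 7575, 10940 and 8174 in MG-NP and 13446, 13925, 13322 and 14107 in T-NP. The T-N tumors overlapped the glands and the T-NP tumors did not. It passed in T-NP (0.60 ± 0.15 (SE, adjusted p = 0.00834)) and missed in T-N (0.21 ± 0.23 (SE, adjusted p = 0.46)). Rps20 had log2 fold changes of 0.12 ± 0.29 (SE, adjusted p = 0.735) in T-N and 0.42 ± 0.16 (SE, adjusted p = 0.0559) in T-NP. The 2 changes were not shown to differ for any of these genes: no member passed the interaction test described below. For comparison, Rps19, the gene most often mutated in Diamond-Blackfan anemia, and Rpsa, also known as the laminin receptor, lie on chromosomes 7 and 9 and rose in T-N by 0.83 ± 0.29 (SE, adjusted p = 0.0397) and 0.74 ± 0.23 (SE, adjusted p = 0.0254).

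The chromosome split was looked at after these values were seen, and it is given without a test. For each tumor, the log2 difference from the mean of its own glands was taken for every protein-coding gene with a mean of at least 50 normalized counts, and the median of all such genes, or of all 79 abundant members, was subtracted. The 825 other genes of chromosome 4 then lay at 0.08, -0.73, -0.51 and -0.76 in T-N replicates 1 to 4, and at -0.28, -0.21, 0.10 and -0.03 in T-NP replicates 1 to 4. The 5 members of chromosome 4 lay at -0.28, -0.999, -0.71 and -0.99 in T-N and at -0.41, -0.52, -0.16 and -0.22 in T-NP. So the 3 tumors in which these members were lowest against their family were the 3 in which the rest of the chromosome was lowest. In the 8 glands, each against the mean of the other 7, chromosome 4 members stayed between -0.08 and 0.07.

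The same held for other chromosomes in T-N tumors. In T-N replicate 1, 994 other genes of chromosome 7 lay at 0.52 and its 14 members (among them Rpl28, Rps19 and Rps16) at 0.54. In T-N replicate 2, chromosome 9 lay at -0.68 for 752 other genes and -0.80 for 7 members, where Rplp1 and Rpsa had their lowest tumor levels, at -0.80 and -0.84. Rps27l, on the same chromosome, lay at 0.31 there and at 0.46 to 1.15 in the other tumors. Rpl29, also on chromosome 9, lay at 0.76 in T-N replicate 2. Chromosome 3 lay at 0.65 and 0.40 in T-N replicates 2 and 3, and its 4 members at 0.34 and 0.57. Over 88 pairs of a tumor and a chromosome with at least 4 abundant members (11 chromosomes), the other genes moved by 0.3 or more in 8. Each of the 8 was in a T-N tumor, and the members moved the same way in all 8. Chromosome 12, with 2 abundant members, was below that minimum. Its other genes lay at 0.53 and 0.40 in T-NP replicates 3 and 4, and its members at 0.17 and -0.05. Chromosome 19 holds no member, and its genes lay at -0.69 and -0.33 in the same T-NP replicates. Across the 88, which share tumors and scaling, Pearson's r was 0.90 and Spearman's rho 0.62. In the glands no chromosome's members moved beyond -0.16 or 0.20. DNA copy number was not measured.

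**Figure D4:**
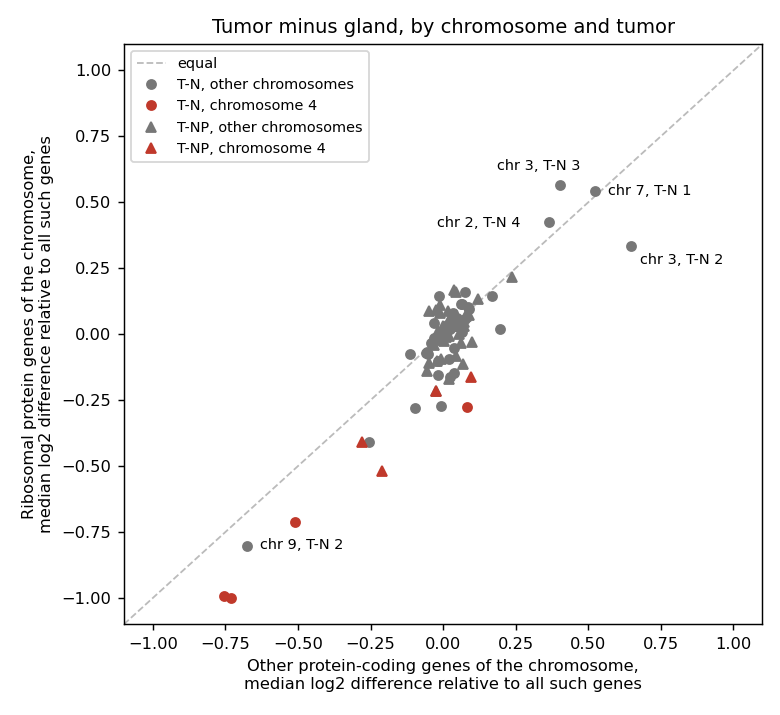
Each point is 1 chromosome in 1 tumor: median log2 difference of tumor from gland for its other protein-coding genes (horizontal) and for its ribosomal protein genes (vertical), each relative to all such genes, with the dashed line marking equal values. Chromosome 4 in T-N 2, 3 and 4 lies at the lower left (members at -0.999, -0.71 and -0.99) and chromosome 7 in T-N 1 at the upper right (0.54).

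The paralogs did not follow the family as a block. Rpl3l had 538, 4281, 17.3 and 2646 normalized counts in MG-NP replicates 1 to 4 and at most 53.5 in any other library. The 3 MG-NP libraries with high Rpl3l were those in which skeletal muscle genes took 3.76, 20.1 and 11.6% of reads, and the fourth had 0.136%. Rpl3l was higher in MG-NP than in MG-WT, where it had 8.1, 2.93 and 2.58 (6.84 ± 1.76 (SE, adjusted p = 0.0164)), and lower in T-NP, which had 0, 4.88, 6.49 and 12.5, than in MG-NP (-6.87 ± 1.63 (SE, adjusted p = 0.00713)). With the muscle score as a covariate these values were -2.89 and -0.06 and neither passed. Muscle score and group cannot be told apart in these fits. Against MG-N, which had 16.6, 35.6, 5.63 and 4.12, the difference was 5.57 ± 1.61 (SE, adjusted p = 0.331); without MG-NP replicate 3 it was 7.23 and passed.

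Rpl39l was scarce but higher in MG-N, with 34.4, 65.5, 52.6 and 46.3 normalized counts, than in MG-WT, with 6.4, 3.9 and 5.68 (2.99 ± 0.32 (SE, adjusted p = 0.000134)). It was lower in T-N, with 3.41, 6.32, 28.3 and 2.33, than in MG-N (-2.72 ± 0.65 (SE, adjusted p = 0.00799)), and the highest tumor lay below the lowest gland. In both comparisons Rpl39l passed the filter of 10 counts through MG-N, the group where it was high. These calls and the lack of overlap are therefore not independent of the filter. MG-NP libraries had 12.4, 5.71, 32.5 and 40.0 and T-NP tumors 1.12, 1.22, 3.9 and 8.74, where Rpl39l did not pass the filter of 10 counts in 4 libraries. Rpl7l1, a nucleolar relative of Rpl7, had 2125, 1879, 1888 and 1946 in MG-N and 3213, 3363, 2953 and 2898 in T-N, and rose by 0.66 ± 0.11 (SE, adjusted p = 0.00138) and, in T-NP, by 0.85 ± 0.11 (SE, adjusted p = 0.000363).

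Rpl22l1, whose expression Rpl22 is known to repress, varied widely among tumors. It had 1542, 2802, 3347 and 1592 normalized counts in T-N and 2624, 2826, 951 and 1423 in T-NP, beside 8822, 4734, 4885 and 4200 and 4969, 6465, 7098 and 8169 for Rpl22. As a percentage of Rpl22, it was 17.5, 59.2, 68.5 and 37.9 in T-N and 52.8, 43.7, 13.4 and 17.4 in T-NP, against 18.7 to 31.1 in MG-N, 16.2 to 28.1 in MG-NP and 35.8 to 42.7 in MG-WT. The 4 tumors of highest Rpl22l1 (T-N replicates 2 and 3, T-NP replicates 1 and 2) had 4734, 4885, 4969 and 6465 counts of Rpl22. The tumor of lowest Rpl22, T-N replicate 4 at 4200, had 1592 of Rpl22l1. A relation between these genes was not tested. Rpl22l1 lies on chromosome 3, which was high in T-N replicates 2 and 3, and at 0.02 and 0.07 in T-NP replicates 1 and 2. Rpl22l1 rose in T-N (1.03 ± 0.31 (SE, adjusted p = 0.023)) and did not pass in T-NP (0.78 ± 0.34 (SE, adjusted p = 0.0794)).

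The ratio of paralog to parent was tested for 6 pairs in 6 comparisons by two-sided exact permutation tests. The smallest p, 0.0286, is the smallest that 4 libraries against 4 or 3 allow, and 8 of the 36 tests reached it, but after Benjamini-Hochberg adjustment over 36 it became 0.129, so no ratio passed, and with this floor one could pass only if most of the 36 reached it. Rps27l over Rps27 was among the 8: its mean log2 ratio was -1.73 ± 0.16 (SD) in T-NP and -3.02 ± 0.67 in MG-NP. In T-N against MG-N the ratio was -2.07 ± 0.42 against -2.75 ± 0.45 (exact p = 0.171, adjusted 0.325). Rps27 itself rose by 0.85 ± 0.26 (SE, adjusted p = 0.0228) in T-N and 0.58 ± 0.19 (SE, adjusted p = 0.0287) in T-NP.

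**Figure D5:**
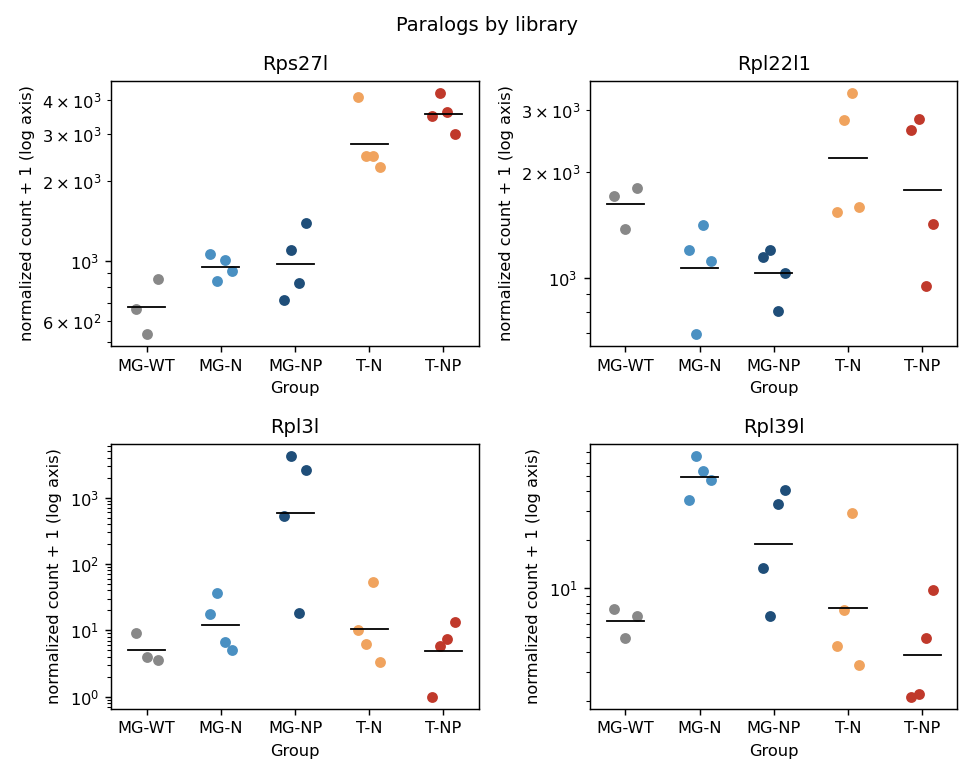
Normalized count plus 1 (log axis) of Rps27l, Rpl22l1, Rpl3l and Rpl39l, 1 point per library in 5 groups, with a bar at the mean of the log values. Rps27l is higher in all 8 tumors than in all glands, and Rpl3l is high in MG-NP 1, 2 and 4.

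Glands of tumor-bearing mice were set against MG-WT, and members moved in both directions. For MG-N, 21 of 81 members were higher and 10 lower, against 30% and 29.2% of all tested genes, with a median log2 fold change of 0.09 against 0.02; the groups did not overlap for 21 higher (31.5% of all genes) and 8 lower (29.8%). For MG-NP, 30 of 82 were higher and 6 lower, against 22.4% and 24%, with a median of 0.26 against 0.02, and without overlap 33 were higher (26.5%) and 7 lower (27.9%). In MG-N both shares of members were below those of all genes, and in MG-NP the share higher was above and the share lower below, but the former depended on the setting. The depth, mitochondrial, adipocyte and luminal shares above differ between the same groups, so they and the genotype cannot be told apart here. Scaling to total reads gave 24 higher and 6 lower for MG-N (32.7% and 25.7% of all genes), and for MG-NP 12 higher and 2 lower (18.2% and 19% of all genes), so that 14.6% of members were higher in MG-NP, below all genes. With a 2-fold minimum 11 members (13.4%) were higher in MG-NP, against 16.4% of all genes. With the muscle covariate 25 (30.5%) were higher in MG-NP, against 5.46% of all genes, and the median was 0.90 with 76 of 82 positive. The muscle score was 3.91 to 4.13 in MG-WT and 8.76 to 16.68 in MG-NP. This fit therefore extrapolates, and muscle and group cannot be told apart in it. The medians moved with single libraries, from -0.01 without MG-N replicate 3 to 0.18 without MG-N replicate 2 for MG-N, and from 0.16 without MG-NP replicate 3 to 0.36 without MG-NP replicate 2 for MG-NP. Both comparisons share the 3 MG-WT libraries, and values are given side by side.

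Rpl21, Rps12, Rpl36a and Rpl38 had the largest rises after the paralogs. Rpl21, a large subunit protein, had 2526, 2162 and 2270 in MG-WT. Its MG-N glands had 6030, 5542, 8368 and 5809 and its MG-NP glands 8446, 6315, 8653 and 6919, and differed by 1.46 ± 0.16 (SE, adjusted p = 0.000134) and 1.70 ± 0.15 (SE, adjusted p = 0.000286). Rps12, a small subunit protein, had 3509, 2849 and 3541 in MG-WT and at least 7399 in every MG-N and MG-NP gland, with differences of 1.43 ± 0.17 (SE, adjusted p = 0.000196) and 1.56 ± 0.20 (SE, adjusted p = 0.00108). Rpl36a, a large subunit gene on the X chromosome, differed by 1.38 ± 0.18 (SE, adjusted p = 0.000312) and 1.52 ± 0.17 (SE, adjusted p = 0.000634). Rpl38, known from the mouse Tail short mutant, differed by 1.16 ± 0.15 (SE, adjusted p = 0.000343) and 1.37 ± 0.15 (SE, adjusted p = 0.000583). Windows of the Rpl21 and Rps12 transcripts were shared with 61 and 22 other genes, and those of Rpl36a and Rpl38 with 3 each. The shared percentage of windows was 39.6 for Rpl21, 89.5 for Rps12, 84.6 for Rpl36a and 46.8 for Rpl38. The part of shared sequence in these differences was not tested.

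Among those lower, the Rpl24 row had 184, 181 and 185 in MG-WT. The MG-N glands had 45.9, 51.7, 68.6 and 56.6 and the MG-NP glands 58.2, 51.4, 61.7 and 63.3, with log2 fold changes of -1.71 ± 0.20 (SE, adjusted p = 0.000217) and -1.63 ± 0.20 (SE, adjusted p = 0.00087). Rps26 was lower by -0.91 ± 0.20 (SE, adjusted p = 0.00449) and -0.71 ± 0.21 (SE, adjusted p = 0.0255), and Rpl35 by -0.73 ± 0.17 (SE, adjusted p = 0.00579) and -0.58 ± 0.14 (SE, adjusted p = 0.0127). Rps16 fell in MG-N (-0.76 ± 0.25 (SE, adjusted p = 0.0284)) and Rpl22l1 fell in MG-NP (-0.65 ± 0.18 (SE, adjusted p = 0.0228)). Rps16 lost its call without any 1 MG-WT library, without MG-N replicate 1 or 2, and under scaling to total reads. Rpl22l1 lost its call without MG-WT replicate 1 or 3, with the replicate block, and with all 5 groups in a single fit. In MG-NP, Rps26 and Rpl35 lost theirs without MG-WT replicate 1 or 3 and under scaling to total reads. With the muscle score as a covariate no member was lower in MG-NP (7.41% of all genes were), and Rps26 turned to 0.18. In that fit muscle and group cannot be told apart. Leaving out single libraries moved the number lower between 5 and 15 in MG-N and between 1 and 8 in MG-NP. Without MG-WT replicate 1, and likewise without replicate 3, it was 5 in MG-N and 1 in MG-NP, it was 6 in MG-N without MG-N replicate 1, and without MG-WT replicate 2 the number higher in MG-NP was 19.

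Samples with and without the conditional mutation and Cre together were compared within tissue. In MG-NP against MG-N, 0 of 82 members passed in either direction, where 0% of all tested genes did. No member was without overlap, where 2.06% of all genes were higher and 4.15% lower in that way. An unadjusted p under 0.05 was reached by 2 members, Rpl3l and Rpl39l. edgeR called 0 members and 0% of all genes, and DESeq2 called 1 member, Rpl3l, with 2.55% of all genes higher and 1.38% lower. The members' median log2 fold change was 0.18 with 78 of 82 positive, against -0.02 for all genes. Under scaling to total reads it was 0.02 with 47 positive, and with the muscle covariate it was 0.57 with 77 positive and 37 members at an unadjusted p under 0.05, of which 0 passed. The median of the main fit ranged from 0.07 without MG-N replicate 2 to 0.29 without MG-N replicate 3. Only MG-NP replicate 3 had a muscle score (8.76) within the MG-N range (4.76 to 9.44). In T-NP against T-N, 0 of 80 passed, where 0.0361% of genes were higher and 0.00601% lower, edgeR and DESeq2 called 0 members (DESeq2 called 0.481% of all genes higher and 0.24% lower), and the median was 0.09, from 0.02 without T-NP replicate 2 to 0.19 without T-N replicate 1. The tumor groups did not overlap for Rps6 and Rplp0, both higher in T-NP (2.64% of all genes were, and 1.57% lower), and Rps6, on chromosome 4, was among those with a p under 0.05 (0.58 ± 0.19 (SE, adjusted p = 0.669)). Rplp0 had 0.30 ± 0.17 (SE, adjusted p = 0.724). For the interaction of tissue and genotype, 0 of 82 passed (0% of all genes), 1 member had a p under 0.05, edgeR called 0, and DESeq2 called 1, Rpl3l, with 0.429% of all genes higher and 1.47% lower. The median of the interaction was -0.10, it was 0.06 under scaling to total reads and -0.28 with the muscle covariate, and it ranged from -0.21 without MG-N replicate 3 to 0.00 without MG-NP replicate 3. The interaction also holds the genotype difference between T-N and MG-N named above.

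Other genes of the translation machinery were described with lists of genes named for their role. Of 18 translation factors with known TOP mRNAs, 13 rose in T-N (23.5% of all genes) and 12 in T-NP (26.2%), and 0 fell, with medians of 0.88 and 0.68. Eef1b2, an exchange factor of elongation factor 1, rose by 0.98 ± 0.19 (SE, adjusted p = 0.00288) and 0.99 ± 0.18 (SE, adjusted p = 0.00205). Fau, which encodes the small subunit protein eS30 and lies outside the member rule, rose by 1.14 ± 0.19 (SE, adjusted p = 0.00146) in T-N. Of 40 ribosome biogenesis genes, 19 (47.5%) rose and 0 fell in T-N, against 23.5% and 27.8% of all genes. In T-NP, 17 (42.5%) rose and 1, Rrp12, fell (-1.24 ± 0.24 (SE, adjusted p = 0.0028)), against 26.2% and 29.3%. Taf1d, a subunit of the selectivity factor of RNA polymerase I, had the largest rise in both (1.21 ± 0.18 (SE, adjusted p = 0.000812) and 1.47 ± 0.16 (SE, adjusted p = 0.000154)). Fbl, the methyltransferase of box C/D particles, rose by 1.0 ± 0.21 (SE, adjusted p = 0.00431) in T-N, and Pes1, needed for large subunit maturation, by 0.98 ± 0.13 (SE, adjusted p = 0.000414) in T-NP.

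Mitochondrial ribosomal proteins, which serve a separate ribosome, had 77 genes tested. In T-N 31 (40.3%) rose and 2 fell, against 23.5% and 27.8% of all genes (median 0.40), and in T-NP 14 (18.2%) rose and 1 fell, against 26.2% and 29.3% (median 0.16). Against MG-WT, 58 were higher and 1 lower in MG-N (30% and 29.2% of all genes, median 0.86), and 56 and 0 in MG-NP (22.4% and 24%, median 1.04). In the same comparison with MG-WT, 14 of 40 biogenesis genes (35%) were lower and 3 higher in MG-N, against the same 29.2% and 30% of all genes, among them Ncl (nucleolin, -2.02 ± 0.23 (SE, adjusted p = 0.000158)) and Nop58 (-1.76 ± 0.15 (SE, adjusted p = 4.51e-05)), and 8 of 18 translation factors were lower and 2 higher, led by Pabpc1, the poly(A)-binding protein (-1.64 ± 0.13 (SE, adjusted p = 2.70e-05)). In MG-NP against MG-WT, 6 of 40 biogenesis genes (15%) were lower and 3 (7.5%) higher. Of 18 translation factors, 5 (27.8%) were lower and 3 (16.7%) higher. Of all tested genes, 24% were lower and 22.4% higher there. In MG-NP against MG-N, T-NP against T-N and the interaction, 0 genes of these 3 lists passed in limma, and the numbers with an unadjusted p under 0.05 were 3, 0 and 1 of 18 translation factors, 4, 5 and 2 of 40 biogenesis genes, and 3, 4 and 1 of 77 mitochondrial ribosomal proteins.

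Many members also carry small nucleolar RNAs in their introns, which guide the modification of ribosomal RNA. In the annotation, 30 of 83 members (36.1%) held a snoRNA gene on the same strand, against 2.14% of 5649 other protein-coding genes with a mean of 1000 or more normalized counts. Rpl4 held 5 and Rpl13a held 4. The 30 hosts and the 51 tested members without a snoRNA had median log2 fold changes of 0.94 and 0.97 in T-N, of 0.84 and 0.87 in T-NP, and of -0.13 and 0.24 for MG-N set against MG-WT. The medians for MG-NP set against MG-WT were 0.06 for 30 hosts and 0.39 for 52 others.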

How the data were processed

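RNA was sequenced from 19 mouse tissue samples as 75-base read pairs, which the authors aligned to GRCm38 with TopHat2 2.1.1 and Bowtie2; the counting tool and annotation are not given in the sources used here, nor is the use of strand. The labels name a total RNA kit and the methods an mRNA kit. The deposited signal is a normalized count, which the authors made by dividing reads by a DESeq2 size factor per library. Whole reads (within 0.05) were recovered for 100.0% of values; in T-N replicate 3 the step is near 1, so there this says little. Symbols came from GENCODE vM21 for 45229 of 46078 IDs (98.16%).

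Each comparison was fitted on its own groups with limma 3.58.1 (R 4.3.3, trended eBayes) on log2(normalized count + 1), a scale that understates the change of low genes. Genes needed 10 normalized counts in as many libraries as the smaller group, and a call was an adjusted p (Benjamini-Hochberg over all genes tested) under 0.05. The fits were tested on simulated data. The interaction used 16 libraries. Levels per kb used the median transcript length. edgeR 4.0.16 and DESeq2 1.42.0 on recovered reads were alternatives. No pair of libraries was a duplicate (smallest chi-square per degree of freedom 39.2, between T-NP replicates 1 and 2; 72.1 to 143 for the other T-NP pairs). The members and lists were chosen with earlier results of these data known. Named genes were the 5 largest rises and falls per comparison among called genes without overlap, the paralog, P stalk and 5S lists, the 3 highest and lowest levels, Rpsa, Rps6, Rps19, and up to 3 genes of each other list, except that some genes are not reported here by name or in the plots of single members; further names were chosen after their values were seen. P-values of the fits weigh group differences against the spread between these samples, and nothing states separate animals for T-NP replicates 1 and 2.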

Additional observations from a re-analysis of the deposited data

Results flagged for a closer look

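In 6 of 76 groups of 4 libraries (19 measures, 4 groups each), 1 library lay far from the other 3 by the gap test at the 95% level, where chance alone flags about 1 in 20. In T-N, Rps27l was highest in replicate 1 at 4104 normalized counts, against 2259 to 2475 in the others. In T-N, Rplp0 was lowest in replicate 1 at 28003, against 34976 to 35837. Rpl22 was highest in T-N replicate 1 at 8822, against 4200 to 4885, and this tumor also had the highest chromosome 4 median among the T-N tumors. Rpl3l and Rpl39l were highest in T-N replicate 3, at 53.5 and 28.3 normalized counts against at most 9.09 and 6.32, and this library also had the largest share of skeletal muscle reads among the tumors, 0.209%. In T-NP, Rps26 was highest in replicate 2 at 11174, against 8249 to 8482.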

How the results depend on the processing

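The rise of the family in the tumors kept its direction under every alternative to the size factors, filters, pseudocounts and tools that was run, with medians of 0.84 to 1.08 in T-N and 0.50 to 0.95 in T-NP, except under scaling to the family median, which removes it by construction. Members higher numbered 56 to 72 in T-N and 68 to 75 in T-NP when single libraries were left out. With a 2-fold minimum the higher and lower counts were 7 and 2 (MG-N against MG-WT), 11 and 1 (MG-NP against MG-WT), 35 (T-N) and 20 (T-NP) higher. Scaling to total reads gave 6 lower for MG-N against MG-WT, and for MG-NP against MG-WT 12 higher and 2 lower. It moved the median of all genes by over 0.1 in T-N (from -0.05 to -0.16), MG-NP against MG-N (from -0.02 to -0.18) and the interaction (from 0.00 to 0.16). With the muscle covariate 6 were higher and 0 lower in T-NP, and for MG-NP against MG-WT 0 were lower, where Rpl3l (-2.89) and Rps26 (0.18) reversed. In both fits the muscle scores of the groups did not overlap. No filter gave 2 lower in T-NP, and the filter at a mean of 50 gave 0 lower in T-N, since Rpl39l was not tested. Scaling to the family median was added after seeing the data. Against MG-WT it gave 12 higher and 14 lower for MG-N, where 3505 and 5202 of 19017 genes were. For MG-NP against MG-WT it gave 16 higher and 21 lower, where 2197 and 6389 of 19065 genes were. In T-N it gave 1 higher and 5 lower (991 and 8954 of 17950 genes), and in T-NP 8 higher and 1 lower (1603 and 9578 of 17880). DESeq2 called 1 higher in MG-NP against MG-N and 1 lower in the interaction, both Rpl3l. Apart from the constructions named, the cause of these changes was not tested.

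With single libraries left out, counts ranged from 5 to 15 lower for MG-N against MG-WT (15 to 26 higher), from 1 to 8 lower for MG-NP against MG-WT (19 to 32 higher), 1 to 2 lower in T-NP, 0 to 1 higher in MG-NP against MG-N and 0 to 1 lower in the interaction, where the 1 was Rpl3l without MG-NP replicate 3. The Rpl22l1 ratio to Rpl22 in T-NP against MG-NP, 0.30, ranged from -0.019 (without T-NP replicate 1) to 0.641 when single libraries were left out. Of the other alternatives to single genes and shares, 651 kept their side, 38 lost the call and 2 gained it.

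Replicate numbers did not pair the samples: correlations of deviations between same-numbered samples ran from -0.30 to 0.34. With the replicate block, 61 members were higher in T-N, 68 in T-NP, 21 in MG-N and 27 in MG-NP against MG-WT. On recovered reads edgeR called 70 members higher in T-N and 74 in T-NP, of 4368 and 4643 genes higher in all.

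Groups of 3 or 4 libraries limit small changes, counting noise limits Rpl39l and the Rpl24 row, and sequence shared with copies limits single members.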
